A study of Homo sapiens with 6 samples.

Results

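The NR4A nuclear receptors are the genes NR4A1, NR4A2 and NR4A3, 3 of the 62252 genes measured, taken by gene name. K562 cells, an established line of erythroid leukemia cells, were kept overnight with 10 µM of the cell-permeable iron chelator 21H7 (Chelator, n = 3) or with an equal volume of its solvent DMSO (n = 3). The cells of both groups were otherwise the same line in the same serum-containing medium, and only 1 dose and 1 time were measured. Polyadenylated RNA was sequenced, and the transcript estimates of each library were summed per gene. The labels number the replicates without saying whether they came from separate cultures, so p-values measure the spread between these libraries, which may be technical.

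NR4A proteins are orphan members of the nuclear receptor family of transcription factors. Their ligand-binding pocket is filled by bulky side chains, so their activity is set largely by how much protein is made and how it is modified, and the genes are classic early response genes, switched on quickly and briefly by growth factors, calcium, cyclic AMP and stress. The receptors bind the DNA element AAAGGTCA as monomers, NR4A1 and NR4A2 also pair with retinoid X receptors, and loss of Nr4a1 together with Nr4a3 in mice leads to myeloid leukemia.

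All members were higher in every Chelator library than in any DMSO library, by very different amounts. In normalized counts, 25.5% of all genes tested were separated in this direction. NR4A1 (also called Nur77) was 18.9-fold higher (log2 fold change 4.24, or 3.57 without transcripts under 1000 bases), NR4A3 (NOR1) was 3.92-fold higher at a very low level, and NR4A2 (Nurr1) was 1.86-fold higher. A gene was called when DESeq2's Wald test gave a Benjamini-Hochberg adjusted p under 0.05 over all 24542 genes with an adjusted p, with an absolute log2 fold change above 1. NR4A1 and NR4A3 were called and NR4A2 was not, since its log2 fold change was below that bound. So 2 of 3 members were called higher, where 8.18% of all genes tested were called higher and 10.8% were called in either direction. Leaving out replicate 1 of DMSO or of Chelator ended the NR4A3 call (DESeq2 adjusted p = 0.0611 and 0.0671), which leaves 1 of 3. The RNA came from whole cultures, so more RNA per cell and more cells holding the RNA cannot be told apart.

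The sequences below show the NR4A1 reading frame that distinguishes the transcripts described next and the NR4A3 promoter. The first pair shows where the coding sequences of NR4A1-206, whose first exon lies far upstream, and NR4A1-204, which starts at the main start, begin on chromosome 12 (GRCh38, plus strand, GENCODE release 44). Capitals mark the start codons, and the second capital run of NR4A1-206 is the start codon of NR4A1-204.
NR4A1-206: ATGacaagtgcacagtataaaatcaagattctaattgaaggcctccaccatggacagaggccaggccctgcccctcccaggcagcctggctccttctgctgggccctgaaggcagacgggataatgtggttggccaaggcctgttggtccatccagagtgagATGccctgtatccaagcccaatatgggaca
NR4A1-204: ATGccctgtatccaagcccaatatgggaca
The coding sequence of NR4A1-206 was 652 codons long and that of NR4A1-204 was 598 codons long. The last 1794 coding bases were identical, and the 162 bases in front of them came from an exon at chr12:52037715-52038749 (its last 40 bases), an exon at chr12:52041810-52041929 (all 120 bases) and the first 2 bases of the exon at chr12:52054327-52055204. NR4A1-206 as annotated therefore encodes the same receptor with 54 more residues at its amino terminus.

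The NR4A3 promoter is shown because NR4A3 was called and because its window holds repeats of a short motif. The line gives 250 bases of RefSeq promoter sequence on the plus strand of GRCh38.p14, chr9:99821635-99821884, which ends at the base before the start of NR4A3-203. Capitals mark TGACG on either strand.
NR4A3: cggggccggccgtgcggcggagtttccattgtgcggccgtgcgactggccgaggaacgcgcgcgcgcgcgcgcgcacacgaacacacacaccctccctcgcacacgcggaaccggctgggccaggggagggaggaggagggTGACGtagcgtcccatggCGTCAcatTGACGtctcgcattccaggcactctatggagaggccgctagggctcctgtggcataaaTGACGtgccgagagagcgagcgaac
TGACG, the core of the cyclic AMP response element, matched 4 times, at 109, 91, 83 and 25 bases before the start of NR4A3-203. The last of these, with the ACGTG described next, lies inside the first exon of NR4A3-202 and NR4A3-204, which start at chr9:99821855. Of 35116 RefSeq windows of 300 bases (250 before and 50 after a start), 24.6% held TGACG at least once. In 0.313% (110 windows) it matched at least 4 times, but the NR4A3 window is shown for its repeats, so this share is no test. ACGTG, the core of the hypoxia response element, matched once at 23 bases before that start, overlapping the last TGACG, and 21.4% of windows held it. TGACGTCA, which contains TGACG, had no match in the window and occurred in 1.85% of all windows. The NF-kappaB site (5.91% of windows), the serum response CArG box (1.29%), the AP-1 site TGACTCA (4.95%) and AAAGGTCA (1.22%) had no match either. All motifs were searched on both strands. RefSeq gave 2 NR4A1 windows, whose parts before the start lie at chr12:52022582-52022831 and chr12:52037465-52037714, the latter next to the first exon of NR4A1-206, and none of these motifs matched in either. No RefSeq window was used for NR4A2 or for the main start of NR4A1. A match is a run of letters and was not tested as a binding site.

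NR4A1 (ENSG00000123358.20, chr12:52022832-52059507, plus strand) had 279, 258 and 233 estimated counts in DMSO replicates 1 to 3, against 3848, 3883 and 3218 after chelation. Its TPM, a measure of abundance scaled to transcript length and to the library, was 1.65, 1.84 and 1.33 in DMSO and 32.9, 30.7 and 28.9 in Chelator. The groups were far apart, with the lowest Chelator library above every DMSO library on either scale. Normalized counts rose from 223 ± 26.2 to 4213 ± 365 (SD, n = 3), and the log2 fold change was 4.24 (SE 0.116, DESeq2 Wald test, adjusted p = 1.88e-291). Of the 24542 genes tested, 381 had a larger log2 fold change. The estimate leaned on a short transcript described below, because the average effective length of NR4A1 fell from 2248 to 1437 bases. When transcripts under 1000 bases were left out, an alternative chosen after seeing the data, the log2 fold change was 3.57 (adjusted p = 1.21e-284), and without the length offset it was 3.60 (adjusted p = 2.51e-288).

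NR4A2 (ENSG00000153234.16, chr2:156324437-156342348, minus strand) had 308, 290 and 308 estimated counts in DMSO and 639, 784 and 623 in Chelator. Its TPM was 1.37, 1.78 and 1.65 in DMSO and 2.63, 3.12 and 3.35 in Chelator. The groups did not overlap, but the gap was small beside that of NR4A1. Normalized counts were 333 ± 28.2 in DMSO and 619 ± 64.4 in Chelator (SD, n = 3), and the log2 fold change was 0.90 (SE 0.151, adjusted p = 2.38e-08, DESeq2). The difference passed the adjusted p but not the fold bound.

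NR4A3 (ENSG00000119508.18, chr9:99821855-99866891, plus strand) had 7, 6 and 4 estimated counts in DMSO and 36, 32 and 31 in Chelator. Its TPM was 0.0169, 0.0342 and 0.0212 in DMSO and 0.104, 0.0877 and 0.0853 in Chelator. The groups did not overlap, although both were near the bottom of what these libraries could measure. Normalized counts rose from 6.99 ± 1.92 to 26.8 ± 3.71 (SD, n = 3), and the log2 fold change was 1.97 (SE 0.70, adjusted p = 0.0146, DESeq2). The call was not stable, with log2 fold changes of 1.77 without DMSO replicate 1 and 1.85 without Chelator replicate 1, neither of them called. It held when any other single library was left out, and leaving a library out leaves fewer to test.

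**Figure D1:**
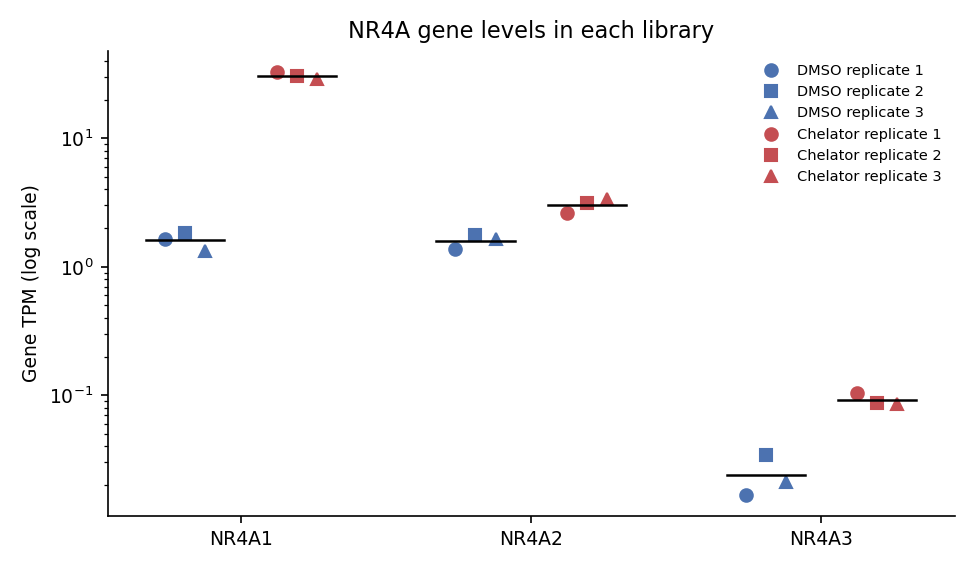
TPM of NR4A1, NR4A2 and NR4A3 (vertical log axis) in each of the 3 DMSO libraries (blue) and 3 Chelator libraries (red), with the group mean as a black line. NR4A1 moved from between 1.33 and 1.84 in DMSO to between 28.9 and 32.9 in Chelator, while NR4A3 stayed below the DMSO levels of the other members in all libraries.

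On the TPM scale, which allows levels of different genes to be compared, NR4A1 and NR4A2 were level in DMSO. Their ranges overlapped (1.33 to 1.84 and 1.37 to 1.78 TPM), and NR4A3 was far below both. Over transcripts of at least 1000 bases NR4A1 had 1.33 to 1.36 TPM in DMSO, just below NR4A2 (1.37 to 1.78). In Chelator the order was NR4A1, NR4A2, NR4A3 with no overlap between neighbours, with or without the short transcripts. The summed TPM of the family was 3.04, 3.65 and 2.995 in DMSO and 35.6, 33.9 and 32.3 in Chelator.

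NR4A1 made up more of the family's TPM in every Chelator library than in any DMSO library. Its share of the family's TPM was 54.3%, 50.3% and 44.3% in DMSO and 92.3%, 90.5% and 89.4% in Chelator, with means of 49.6% ± 5.06 and 90.7% ± 1.48 (SD, n = 3). The share of NR4A2 was 49.6% ± 5.01 in DMSO and 8.99% ± 1.497 in Chelator (SD, n = 3), while its own TPM was higher in Chelator. NR4A3 held 0.734% ± 0.192 and 0.272% ± 0.0182 (SD, n = 3). None of the shares overlapped between groups, and each gave p = 0.10 in a two-sided exact permutation test, the smallest p that 3 libraries against 3 allow.

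NR4A1 transcripts were also present in different proportions in the 2 groups. In edgeR's diffSpliceDGE test of transcript usage, which asks whether a gene's transcripts keep their proportions, NR4A1 had an adjusted p of 2.42e-07 over 7 transcripts. The largest change of a mean transcript share was 46.1 percentage points of the gene's TPM. NR4A1 was called (adjusted p under 0.05 and a change above 5 points), as were 9.22% of the 11938 genes tested. The smallest transcript p and the largest change both belonged to NR4A1-217, which had 0 counts in DMSO. NR4A1-217, NR4A1-203 and NR4A1-215 reached 10 counts only in Chelator, so the gene's p is not separate evidence of a shift. NR4A1-204 and NR4A1-206 reached 10 counts in every library. NR4A1 has 22 annotated transcripts, of which 16 had counts in at least 1 library. Salmon divides a read pair that fits several transcripts among them, so the counts of single transcripts are estimates and the transcripts that share most of their exons are least certain.

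The full-length transcript NR4A1-204 (2485 bases), which starts at chr12:52051442 and encodes the standard receptor, had 72.7, 32.2 and 42.1 estimated counts in DMSO and 2506, 2329 and 2164 in Chelator. Its share of NR4A1 TPM rose from 17.0% ± 5.83 to 36.2% ± 2.61 (SD, n = 3), with an adjusted p of 5.18e-05 over all transcripts (edgeR). It alone held more counts in each Chelator library than the whole gene held in any DMSO library. NR4A1-203 (2639 bases), which shares this start and the same coding length, had 0 counts in all DMSO libraries and 267, 210 and 105 in Chelator.

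NR4A1-206 (3511 bases), the transcript with the longer coding sequence shown above, starts 13.7 kb upstream of NR4A1-204. It had 149, 177 and 133 estimated counts in DMSO and 152, 216 and 107 in Chelator, and the groups overlapped. Its share of NR4A1 TPM was 31.7%, 41.0% and 40.6% in DMSO and 1.56%, 2.21% and 1.37% in Chelator. Relative to the other NR4A1 transcripts it fell by 2.64 on the log2 scale (adjusted p = 1.44e-04 over all transcripts, edgeR). Thus the most abundant NR4A1 transcript of the DMSO libraries kept overlapping counts while its share of the gene shrank.

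The short transcript NR4A1-217 (574 bases) also starts at chr12:52051442, and its annotated coding sequence is incomplete at the 3′ end. It had 0 counts in all DMSO libraries and 558, 536 and 401 in Chelator. Because TPM divides by length, these counts made up 46.1% ± 3.84 of NR4A1 TPM in Chelator (SD, n = 3), more than NR4A1-204. NR4A1-209 (1101 bases), which starts within 100 bases of it, had 0 counts in DMSO and 0, 123 and 137 in Chelator. Within the Chelator group the estimate for NR4A1-209 thus ran from 0 to 137 counts.

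Other NR4A1 transcripts with at least 5% of the gene's mean TPM in a group were NR4A1-207, NR4A1-218 and NR4A1-205. NR4A1-207 (1258 bases), which starts 14.3 kb upstream, had 33.6, 19.1 and 39.4 counts in DMSO and 136, 162 and 109 in Chelator. NR4A1-218 (521 bases), which starts 14.2 kb upstream, had 5.80, 9.50 and 0 counts in DMSO and 9.22, 11.6 and 20.3 in Chelator, and the groups overlapped. NR4A1-205, a transcript with a retained intron, had 14.3, 19.7 and 1.81 counts in DMSO and 129, 172 and 80.5 in Chelator. Over the 7 annotated retained-intron transcripts of NR4A1, counts were 15.8, 20.7 and 8.20 in DMSO and 215, 295 and 172 in Chelator. They made up 2.48% to 10.8% of the gene's TPM in DMSO and 3.47% to 5.44% in Chelator, ranges that overlap.

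**Figure D2:**
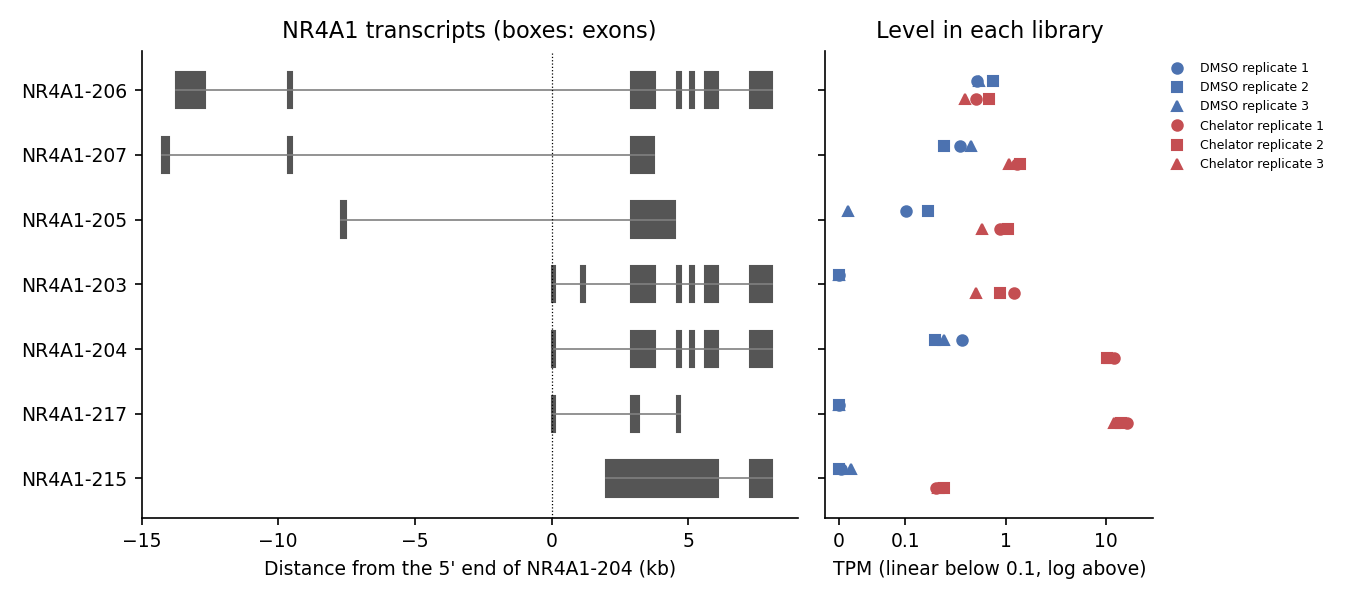
The 7 NR4A1 transcripts in the usage test, with exons as boxes and introns as lines by distance from the 5′ end of NR4A1-204 in kb (left), and their TPM in each library on an axis that is linear below 0.1 and logarithmic above (right). NR4A1-204 and NR4A1-217 lie far to the right in all Chelator libraries (red), while the red and blue points of NR4A1-206 overlap.

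Grouping transcripts by where they start removes much of the ambiguity among those that share a first exon. The bounds were set after the values were seen, so the groups are described with no test. The 7 transcripts that start within 100 bases of NR4A1-204 held 72.7, 32.2 and 53.0 estimated counts in DMSO and 3332, 3198 and 2807 in Chelator. The 3 transcripts that start 12 to 15 kb upstream held 188, 205 and 172 in DMSO and 296, 390 and 237 in Chelator. Neither set overlapped between groups, but the mean counts of the first were 59.1-fold apart and those of the upstream set 1.63-fold apart.

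As shares of the gene's TPM, the main start made up 18.4% ± 6.75 in DMSO and 88.5% ± 1.64 in Chelator (SD, n = 3). The start 12 to 15 kb upstream made up 73.3% ± 6.28 and 7.20% ± 0.689 (SD, n = 3). As shares of the gene's counts, which do not weigh the short NR4A1-217 by its length, the main start made up 20.4% ± 7.09 and 85.4% ± 2.65 (SD, n = 3). Transcripts that start 7 to 10 kb upstream had 16.7, 19.7 and 1.81 counts in DMSO and 132, 179 and 89.8 in Chelator, and those over 25 kb upstream had counts in 1 Chelator library only (4.86). Transcripts that start inside the gene, mostly with retained introns, had 1.47, 1 and 6.39 counts in DMSO and 83.7, 117 and 84.4 in Chelator.

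**Figure D3:**
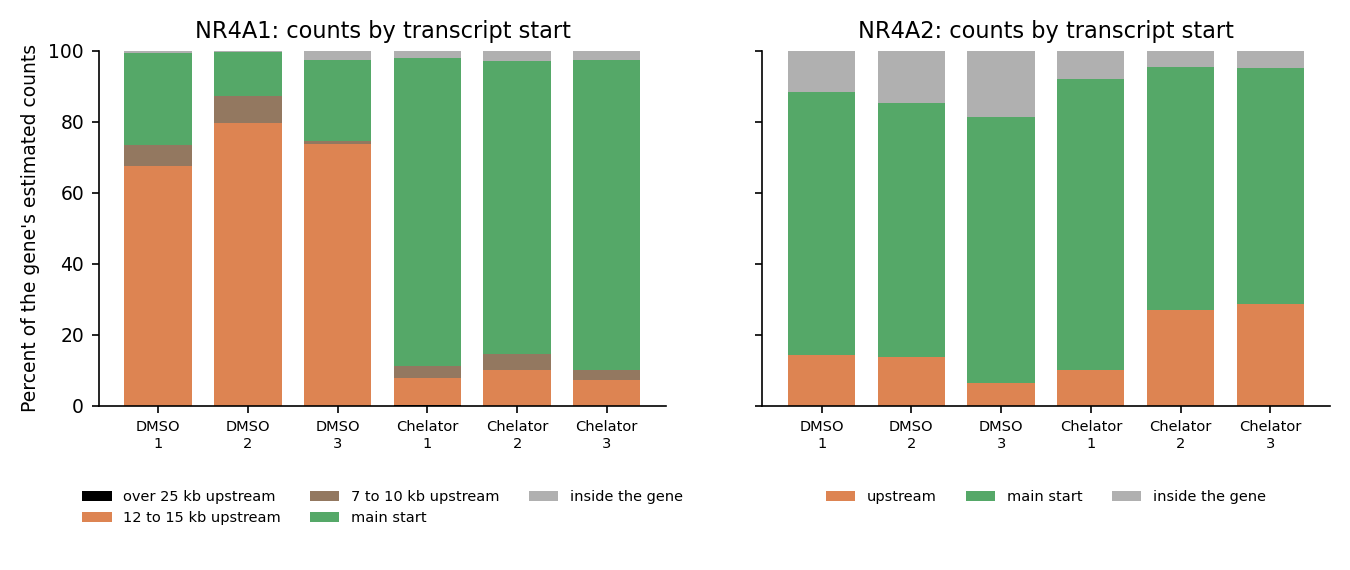
Percent of the estimated counts of NR4A1 (left) and NR4A2 (right) held by transcripts grouped by start position, in each of the 6 libraries. For NR4A1 the main start (green) holds between 12.5% and 26.1% in DMSO and between 82.4% and 87.2% in Chelator, whereas the NR4A2 bars show no such exchange.

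NR4A2 was not called for transcript usage. Its usage test over 5 transcripts gave an adjusted p of 1.00 by edgeR, and the largest change of a mean share, 10.8 points, was within the spread between libraries. NR4A2-201 (3472 bases), the main full-length transcript, had 185, 184 and 148 counts in DMSO and 499, 460 and 374 in Chelator, and held 49.1% ± 6.21 and 59.9% ± 12.4 of the gene's TPM (SD, n = 3). NR4A2-204, which starts 9.63 kb upstream and encodes a protein of the same coding length (1794 bases), had 43.7, 39.9 and 19.9 counts in DMSO and 65.0, 211 and 178 in Chelator. The share of NR4A2-204 in TPM was 11.2% ± 4.25 in DMSO and 21.4% ± 9.18 in Chelator (SD, n = 3), and the shares overlapped.

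The remaining NR4A2 transcripts were uneven between libraries of 1 group. NR4A2-205, annotated as a target of nonsense-mediated decay, had counts in DMSO replicates 1 and 3 and Chelator replicate 1 only, at 35.9, 57.1 and 51.5. NR4A2-212 ranged from 8.41 to 83.0 counts in DMSO and from 3.61 to 73.9 in Chelator. NR4A2-208 had counts in 1 DMSO library (15) and in 2 Chelator libraries (3.04 and 32.8). The 3 decay-annotated transcripts together had 35.9, 42.8 and 57.1 counts in DMSO and 51.5, 35.6 and 22.5 in Chelator, overlapping counts in a gene whose total was higher. Their share of NR4A2 TPM was between 15.8% and 24.2% in DMSO and between 3.91% and 11.3% in Chelator, with no overlap.

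NR4A3 counts were too few for the usage test at 10 counts in 3 libraries. With transcripts of at least 1 count, 2 NR4A3 transcripts could be tested and the adjusted p was 0.173 (edgeR). The 5604-base transcript NR4A3-203 had 26.9, 24.0 and 31 counts in Chelator and 0 in each DMSO library. In DMSO, the counts were assigned to NR4A3-204 in replicate 1 (7) and to NR4A3-202 in replicates 2 and 3 (6 and 4). NR4A3-202, whose coding sequence is shorter than that of NR4A3-203 (1329 against 1878 bases), also had 9.08, 7.97 and 0 counts in Chelator. With so few read pairs in DMSO, which transcript they belong to was not resolved at this depth.

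Overlapping genes could share reads with the members, and whether strand was used in counting is not given in the sources used here. NR4A1AS, antisense to the 3′ end of NR4A1 at chr12:52058459-52059503, had 0 counts in all libraries except Chelator replicate 2 (11.8). STX17-DT, whose annotated span crosses NR4A3 on the opposite strand, had 527, 818 and 375 counts in DMSO and 528, 679 and 392 in Chelator, and the groups overlapped. Of the distinct 31-base sequences in NR4A1 transcripts, read on either strand, 12.5% also occurred in another gene and 2.94% in a gene that does not overlap it, and the share in any other gene was 0.184% for NR4A2 and 0.127% for NR4A3. No 31-base sequence was shared between members.

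The other nuclear receptors moved in both directions. Of 45 genes of the superfamily outside NR4A, 34 had an adjusted p, 7 were higher and 10 lower at an adjusted p under 0.05 (DESeq2), 2 were called higher and 2 lower, and their median log2 fold change was -0.038 against 0.016 over all genes tested. Of the 37 nuclear receptors with an adjusted p, NR4A1 ranked 1, NR4A3 ranked 2 and NR4A2 ranked 5 by log2 fold change. Between them stood PPARD, a fatty acid sensor, at 1.84 (adjusted p = 1.50e-124), and the estrogen receptor ESR1 at 1.71 (adjusted p = 0.0478), named for its rank, both by DESeq2.

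PPARD was the more abundant of these, with 6.52, 7.004 and 6.36 TPM in DMSO and 23.4, 24.4 and 24.7 in Chelator, below NR4A1 in each Chelator library and above it in each DMSO library. The order in Chelator rested on short NR4A1 transcripts: over transcripts of at least 1000 bases NR4A1 had 15.7 to 16.1 TPM there and PPARD had 23.4 to 24.7. NR6A1, an orphan receptor of germ cells and embryos, fell by 1.23 (adjusted p = 7.45e-44), and the retinoic acid receptor RARG fell by 1.16 (adjusted p = 1.46e-15), both on the log2 scale by DESeq2. ESR1 had between 3 and 13 counts in DMSO and between 24 and 36 in Chelator, a level like that of NR4A3.

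**Figure D4:**
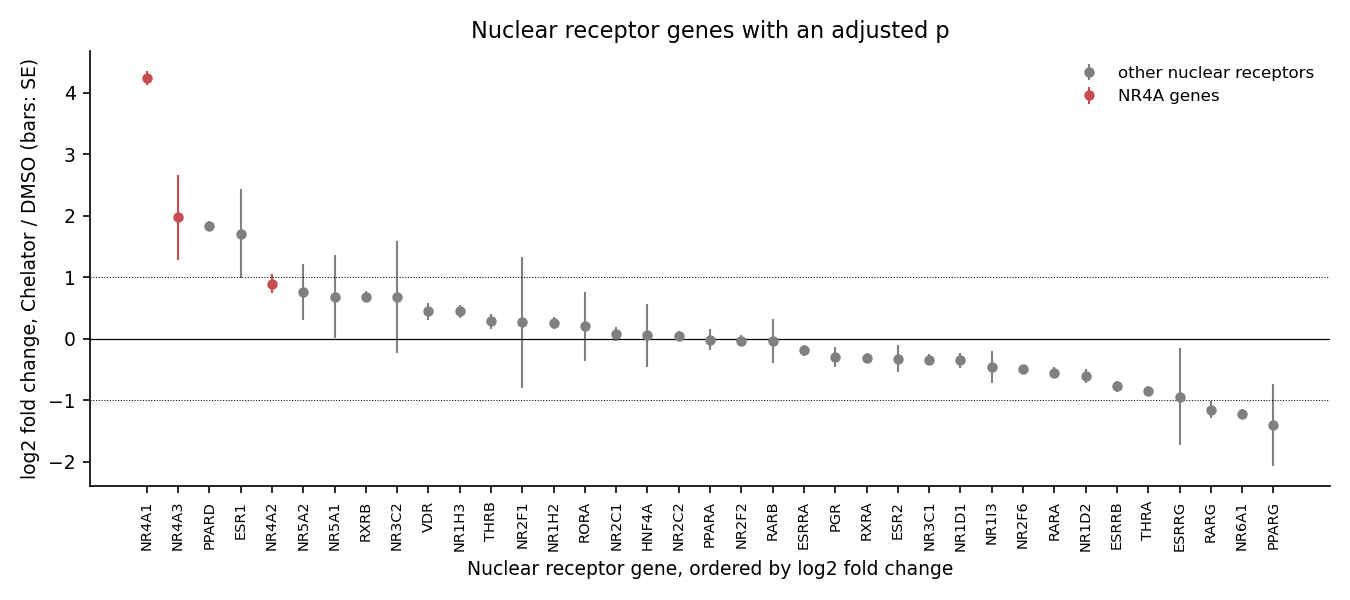
Log2 fold change of Chelator over DMSO with its SE for the 37 nuclear receptor genes with an adjusted p, in rank order, NR4A genes in red and dotted lines at a log2 fold change of 1 and -1. NR4A1 stands alone at 4.24, NR4A3 (1.97) lies next to PPARD (1.84) and ESR1 (1.71), and NR4A2 (0.90) lies below the line at 1.

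The retinoid X receptors, dimer partners of NR4A1 and NR4A2, were not called. RXRA had 11.0, 13.4 and 12.1 TPM in DMSO and 10.2, 9.63 and 9.96 in Chelator, a log2 fold change of -0.32 (adjusted p = 2.63e-04, DESeq2). RXRB had 17.2, 17.7 and 16.0 TPM in DMSO and 25, 29.2 and 29.3 in Chelator, a log2 fold change of 0.68 (adjusted p = 1.69e-13, DESeq2). RXRG had at most 3 counts in any library. NR4A1 had less TPM than RXRA and RXRB in each DMSO library, and in Chelator it had more than RXRA in all libraries and more than RXRB in replicates 1 and 2 but not in replicate 3. Over transcripts of at least 1000 bases NR4A1 had 16.1, 15.9 and 15.7 TPM in Chelator, less than RXRB (23.5, 27.7 and 27.8) in every library and more than RXRA.

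Of 15 cofactors reported to bind NR4A proteins, 14 had an adjusted p, and their median log2 fold change was -0.0054. Of 25 transcription factors and cofactors that act at the promoters of NR4A genes, such as CREB, MEF2, serum response factor and their coactivators and corepressors, 2 were called higher and none lower. These were MEF2B, with 1.04, 0.683 and 1.27 TPM in DMSO and 6.13, 7.65 and 7.94 in Chelator (log2 fold change 2.81, adjusted p = 7.79e-35), and the CREB coactivator CRTC1, at 1.39 (adjusted p = 4.47e-30), by DESeq2. Their list had a median log2 fold change of -0.0014. Of 16 kinases that act upstream, none was called, 6 were higher and 4 lower at an adjusted p under 0.05 by DESeq2, and the median log2 fold change was 0.24.

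Genes reported elsewhere as NR4A targets moved in both directions. Of the 14 steroid hormone and dopamine genes, 5 had an adjusted p (median log2 fold change 0.54) and 2 were called higher. These were CYP17A1, with 0 counts in all DMSO libraries and 9.49, 8.23 and 2 in Chelator, and CYP21A2, with 26.6, 20.7 and 21.6 in DMSO and 84.6, 57.4 and 66.2 in Chelator, both below the level set for naming and named after their values were seen. Of 10 genes of glucose and energy metabolism, 6 had an adjusted p (median log2 fold change -0.23) and 1 was called, the insulin-responsive glucose carrier SLC2A4, which fell by 1.43 on the log2 scale (adjusted p = 7.48e-15, DESeq2).

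Of the 14 immune and apoptosis targets, 10 had an adjusted p (median log2 fold change 0.55), 3 were called higher and 1 lower. The chemokine CXCL8 had 0.483, 0.518 and 0.612 TPM in DMSO and 5.49, 5.22 and 5.61 in Chelator, a log2 fold change of 3.31 (adjusted p = 1.58e-39, DESeq2). The immune checkpoint gene PDCD1 rose by 1.84 (adjusted p = 5.24e-20), and the ectonucleotidase ENTPD1 fell by 1.67 (adjusted p = 7.74e-55), both on the log2 scale by DESeq2. The third gene called higher was the death ligand TNFSF10, with 10, 9 and 3 counts in DMSO and 26, 36 and 35 in Chelator, named after its values were seen. Of 5 proliferation targets, all tested, 2 were higher and 2 lower at an adjusted p under 0.05 (DESeq2), with a median log2 fold change of -0.18, and 1 was called. Cyclin D1 (CCND1) rose from 6.06, 7.20 and 6.92 TPM in DMSO to 21.9, 20.5 and 20.4 in Chelator, a log2 fold change of 1.61 (adjusted p = 1.01e-67, DESeq2).

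Early response genes, the class to which the NR4A genes belong, were mostly higher after chelation. Of 29 such genes outside the family, 27 had an adjusted p, of which 17 were called higher and none lower, and 25 were higher at an adjusted p under 0.05 (DESeq2). Their median log2 fold change was 1.44 against 0.016 over all genes tested, of which 8.18% were called higher. This list was chosen with earlier results of these data known. Leaving aside genes whose normalized count averaged under 50, the largest changes were in the zinc finger factors EGR3 and EGR2 and the AP-1 subunit FOSB. EGR3 had 12, 6 and 4 counts in DMSO and 2753, 2398 and 2002 in Chelator, a log2 fold change of 8.11 (adjusted p = 3.71e-127, DESeq2). EGR2 rose by 6.33 and FOSB by 3.61 on the log2 scale, with adjusted p of 2.06e-36 and 2.14e-94 (DESeq2).

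The genes with the pattern most like a member were sought among 12278 protein-coding genes (mean normalized count 50 or more). They had the smallest Euclidean distance between log2 normalized counts over the 6 libraries, each gene centred on its own mean over these libraries. For NR4A1 these were TMEM154 (distance 0.391), the kinase scaffold AKAP12 (0.460) and the drug efflux pump ABCB1 (0.482). For NR4A2 they were WAS (0.0931), a regulator of actin in blood cells, COMMD6 (0.103) and FCHSD1 (0.156), and for NR4A3, of which 2 are given here, the lipid kinase PIK3C2B (0.283) and the early response factor KLF4 (0.292). The 6 libraries form 2 groups, so this distance weighs mainly the size of the difference between them.

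The libraries held between 78.6 and 90.4 M estimated counts in DMSO (M, mega) and between 85.4 and 101 M in Chelator. DMSO replicate 2 stood apart from its group in counts per gene (chi-square per gene 42.9 and 62.1 against the other DMSO libraries, which differed by 8.23). Without it the log2 fold changes were 4.26 for NR4A1, 0.90 for NR4A2 and 2.20 for NR4A3. Chelator replicate 1 stood apart in the same way (30.8 and 28.4 against the other Chelator libraries, which differed by 6.59). Without Chelator replicate 1 the log2 fold changes were 4.17, 0.97 and 1.85, and NR4A3 was no longer called (adjusted p = 0.0671, DESeq2). It was also the Chelator library with 0 counts for NR4A1-209 and the fewest for NR4A2-204. The median gap between transcript length and effective length, a measure of fragment length, was 252 to 264 bases in DMSO and 200 to 218 in Chelator, so the effects of fragment size and of the chelator cannot be told apart, and the part of fragment size in the estimates of short transcripts such as NR4A1-217 was not tested.

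K562 identity was checked with 8 erythroid markers, whose summed TPM was 9770 to 10852 in DMSO and 12765 to 13584 in Chelator. None was called, but 3 were higher and 2 lower at an adjusted p under 0.05 (DESeq2). The fetal globins HBG1 and HBG2 made up most of the sum, and KLF1, a master regulator of red cell genes, had 77.8 to 87.4 TPM in DMSO and 47.7 to 52.9 in Chelator (log2 fold change -0.72, adjusted p = 4.59e-23, DESeq2), named after its values were seen. Of 10 markers of other cell types, 8 had an adjusted p, 4 were higher and 2 lower at an adjusted p under 0.05 (DESeq2) and 3 were called higher, and their summed TPM was 82.0 to 84.0 in DMSO and 92.0 to 98.4 in Chelator. Those called were CD3D (log2 fold change 1.59, adjusted p = 3.21e-16), COL1A1 (1.60, adjusted p = 1.43e-16) and CD3E (1.97, adjusted p = 0.00343), the last named after its values were seen, all by DESeq2. COL1A2 and EPCAM, also named after their values were seen, were lower (log2 fold changes -0.48 and -0.48, adjusted p = 0.0026 and 1.63e-07, DESeq2). MS4A1 had 0 counts in every library and KRT5 had 1 count in 1 library. Their part in the NR4A results was not tested.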

How the data were processed

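Polyadenylated RNA of K562 cells was sequenced as paired-end reads, and the submitters' processing notes name Salmon 1.10.2, STAR 2.7.11b and DESeq2 3.19 with build hg38. The authors' deposited Salmon tables hold 252045 transcripts, each with an estimated count, a TPM value and an effective length (the length corrected for fragment size). The transcript annotation and Salmon's bias settings are not given in the sources used here. No replicates were pooled.

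Their identifiers were looked up in GENCODE release 44 (GRCh38): 251142 in the same version, 470 in another, and 433 not at all (at most 0.150% of counts). Deposited estimated counts and TPM were summed per gene, and sums were rounded. Genes with a total above 10 were fitted with DESeq2 1.42.0 (R 4.3.3, median-ratio size factors, average transcript length as offset). Normalized counts are divided by both. Transcript usage was tested with edgeR 4.0.16 on transcripts reaching 10 counts in 3 or more libraries. Shares were tested by exact permutation (scipy 1.17.1). The test, count minimum and thresholds follow the study's methods. Alternatives were edgeR's quasi-likelihood test, TMM, mean centring, no length offset, other filters, a replicate block, single libraries left out, limma 3.58.1, count shares, protein-coding transcripts only and, chosen after seeing the data, transcripts of at least 1000 bases. The gene fits of DESeq2 and edgeR and the usage test of edgeR were run on simulated counts. The simulated gene lengths were equal, so the length offset was not covered.

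Named genes were all members, their transcripts with at least 5% of the gene's TPM in a group, all genes of lists of up to 3 genes, and of each other list up to 3 called genes with the largest changes and a mean normalized count of at least 50, plus those needed to place the members and the 3 genes most like each member. Results that this rule gives for some genes are not reported here. The members and the gene lists were chosen with earlier results of these data known. All coordinates are 1-based.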

Additional observations from a re-analysis of the deposited data

How the results depend on the processing

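NR4A1 and NR4A2 kept their direction and their side of the thresholds for expression in all 14 alternatives, with log2 fold changes of 3.57 to 4.31 and 0.74 to 0.97. NR4A1 remained called for transcript usage in all 9 (adjusted p 2.55e-11 to 6.95e-04) and NR4A2 in none, and the family shares kept their direction (the exact p for NR4A3 was 0.30 as a share of estimated counts). NR4A3 lost its call with a replicate block (log2 fold change 1.97, adjusted p = 0.0607 by DESeq2) and without DMSO replicate 1 or Chelator replicate 1, and its log2 fold change was 1.77 to 2.20 over the left-out libraries. Leaving a library out leaves fewer to test, and for the block the cause was not tested. The replicate block changed no other call of a member. The labels do not say whether libraries of the same number were paired. Deviations of same-numbered libraries correlated at -0.02, 0.09 and 0.04, and not every library correlated best with its own number. Such values show no shared effect but cannot exclude pairing. Over all genes, limma called 3184 genes for transcript usage against 1101 by edgeR, and leaving out a library gave 539 to 1063, with 592 without Chelator replicate 2 and 539 without Chelator replicate 3. Centring on the mean log2 change moved the median of all genes to -0.14 and gave 1644 genes called higher and 1050 lower (61.0% higher) against 2007 and 639 (75.9%), and NR4A1, NR4A2 and NR4A3 then had log2 fold changes of 4.09, 0.74 and 1.81. The shares rest on 3 libraries a group, so their p could not go below 0.10. NR4A3 had at most 7 counts in a DMSO library, and its transcripts could not be resolved at this depth.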
